A study of Mus musculus with 4 samples.

Results

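Members of the BCL2 family that promote cell death, 10 genes of 36413 gene names on the array, were followed in 32D-EpoR cells with and without erythropoietin (Epo). They are 8 BH3-only genes (Bcl2l11, Bmf, Bbc3, Pmaip1, Bad, Bid, Bik and Hrk) and the pore-forming genes Bax and Bak1. Members were the non-control spots of the arrays that carry one of these 10 gene names, which gave 11 probes of 55681: 2 for Bad and 1 for each other gene, with 1 spot per probe. 32D is a mouse myeloid progenitor line that lives on interleukin-3, and the 32D-EpoR derivative carries an erythropoietin receptor. All cells were kept in RPMI with 10% FBS and 10% WEHI medium, and for the experiment were washed and held in RPMI with 10% FBS alone. One group then received Epo at 10 u/ml and the control group received none. The labels do not say how long Epo was present. Each group was measured on 2 one-colour Agilent arrays, from independent experiments on cells of different passages, and this number of arrays limits the precision of every value.

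BH3-only proteins are the sensors of the mitochondrial route to apoptosis. They carry a short BH3 helix that fits the groove of the survival proteins BCL2, BCL-XL and MCL1 and, for some of them, of BAX and BAK, which then open pores in the outer mitochondrial membrane. In blood progenitors, loss of a survival cytokine is a classic trigger: the BH3-only proteins BIM (Bcl2l11), PUMA (Bbc3) and BMF are then known to act, and FOXO factors are known regulators of Bcl2l11 and Bbc3.

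Levels are given as the log2 of the processed intensity, scaled to the 75th percentile of each array. Tests were limited to probes that the scanner software marked as well above background on the whole of a group, with or without Epo. Of the 11 member probes, 8 probes of 7 genes were tested, each of them well above background on all 4 arrays. The Pmaip1, Bik and Hrk probes were not well above background on any array.

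Among the tested genes, Bmf, Bcl2l11 and Bbc3 were lower with Epo, and no member was called higher. A call is a Benjamini-Hochberg adjusted p under 0.05 in limma, over all 23735 tested probes. Thus 3 of 7 genes were called lower and 0 higher. At an unadjusted p under 0.05 in limma, 5 of the 7 genes were lower, Bax and Bad among them, and 0 higher. Of all 23735 tested probes, 5194 were lower and 4716 higher at that threshold. Among all 17569 tested genes, each read by its brightest probe, 13.4% were called lower, 12.5% higher and 25.9% in either direction. The median change of the 7 genes was -0.59 on the log2 scale, against -0.062 for all tested genes. The 2 groups did not overlap for 7 of the 8 tested member probes, which was so for 68.3% of all tested probes.

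The sequences that follow show what the Bcl2l11 value reads, and stretches in front of 2 of the genes called lower, Bcl2l11 and Bbc3. The Bcl2l11 probe lies in mm9 at chr2:127972893-127983988 on the plus strand, per the array file. These 60 bases span 11096 genomic bases, so the probe crosses a splice junction. Capitals mark adjacent codons for glycine and aspartate in an open reading frame, the pair that stands in the core of the BH3 domain.
Bcl2l11 probe: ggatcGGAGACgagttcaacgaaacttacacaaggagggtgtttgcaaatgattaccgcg
Promoter sequence came from RefSeq (GRCm38.p6), with windows from 250 bases before to 50 bases after a gene's start. It held 14 windows of 8 members. Each was searched on both strands for GTAAACA, the letters that FOXO factors favour, and for TTCNNNGAA, the STAT5 site. GTAAACA was in 2 of the 14 member windows, 1 of Bcl2l11 and 1 of Bbc3, and in 3.65% of all 32851 windows. The other windows of these 2 genes lacked it. No window of Bmf, the member with the largest fall, held it. Capitals mark it in the 250 bases before the first Bcl2l11 start, chr2:128125788-128126037, where it begins 227 bases before the start, and in 29 bases around it on the opposite strand near a Bbc3 start, chr7:16310083-16310111, where it begins 167 bases before the start.
Bcl2l11 promoter: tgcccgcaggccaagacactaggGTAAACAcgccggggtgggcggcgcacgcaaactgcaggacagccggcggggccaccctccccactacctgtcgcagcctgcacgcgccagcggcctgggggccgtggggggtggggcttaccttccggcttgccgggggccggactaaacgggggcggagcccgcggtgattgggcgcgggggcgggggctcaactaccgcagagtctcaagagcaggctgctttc
Bbc3 window site: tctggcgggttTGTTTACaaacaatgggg
TTCNNNGAA was in none of the 14 member windows and in 8.3% of all windows. These matches describe letters in short windows, and binding was not measured.

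Bmf, a BH3-only protein that sits on myosin V motors through a dynein light chain, had the largest fall of the tested members. Its log2 level was 8.81 and 8.79 without Epo and 6.99 and 6.70 with Epo. Both arrays with Epo lay below both without it, with differences of -1.81 in replicate 1 and -2.09 in replicate 2. Its log2 change was -1.95 ± 0.15 (SE), a 3.87-fold fall (limma adjusted p 0.00585). Only 0.683% of the tested probes had a lower change. The probe lies in mm9 on the minus strand of chromosome 2, from 118354496 to 118354555, and starts at base 4570 of its transcript.

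Bcl2l11 encodes BIM, a BH3-only protein that binds every survival member of the family. Its log2 level was 6.64 and 6.68 without Epo and 5.06 and 5.27 with Epo. The groups stood apart, with a log2 change of -1.50 ± 0.13 (SE), a 2.83-fold fall (limma adjusted p 0.00686). A lower change was seen for 1.93% of tested probes. The Bcl2l11 probe is dim. Its processed intensity was 72.9 and 84.1 without Epo and 37.6 and 57.1 with Epo, and on the first Epo array this was 1.81 times the lowest signal still well above background. With the normexp background correction, which adds an offset of 50 and so pulls dim signals together, the change was -0.96 (limma adjusted p 0.00303).

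Bbc3 encodes PUMA, a BH3-only protein known as a p53 and FOXO target. Its log2 level was 13.38 and 13.15 without Epo and 12.13 and 11.75 with Epo, again with no overlap between the groups. Its log2 change was -1.32 ± 0.18 (SE), a 2.50-fold fall (limma adjusted p 0.0135). Its probe lies in mm9 on the plus strand of chromosome 7, from 16903403 to 16903462.

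These calls depended on the arrays with Epo. Without replicate 1 of the Epo group the limma adjusted p was 0.0554 for Bmf, 0.0714 for Bcl2l11 and 0.0722 for Bbc3, with changes of -2.10, -1.40 and -1.51. In that fit 0 of 26764 probes passed (smallest adjusted p 0.0537), with 3598 higher and 3178 lower at an unadjusted p under 0.05. Without replicate 2 of the Epo group the adjusted p of Bbc3 was 0.0518 and its change was -1.14.

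**Figure D1:**
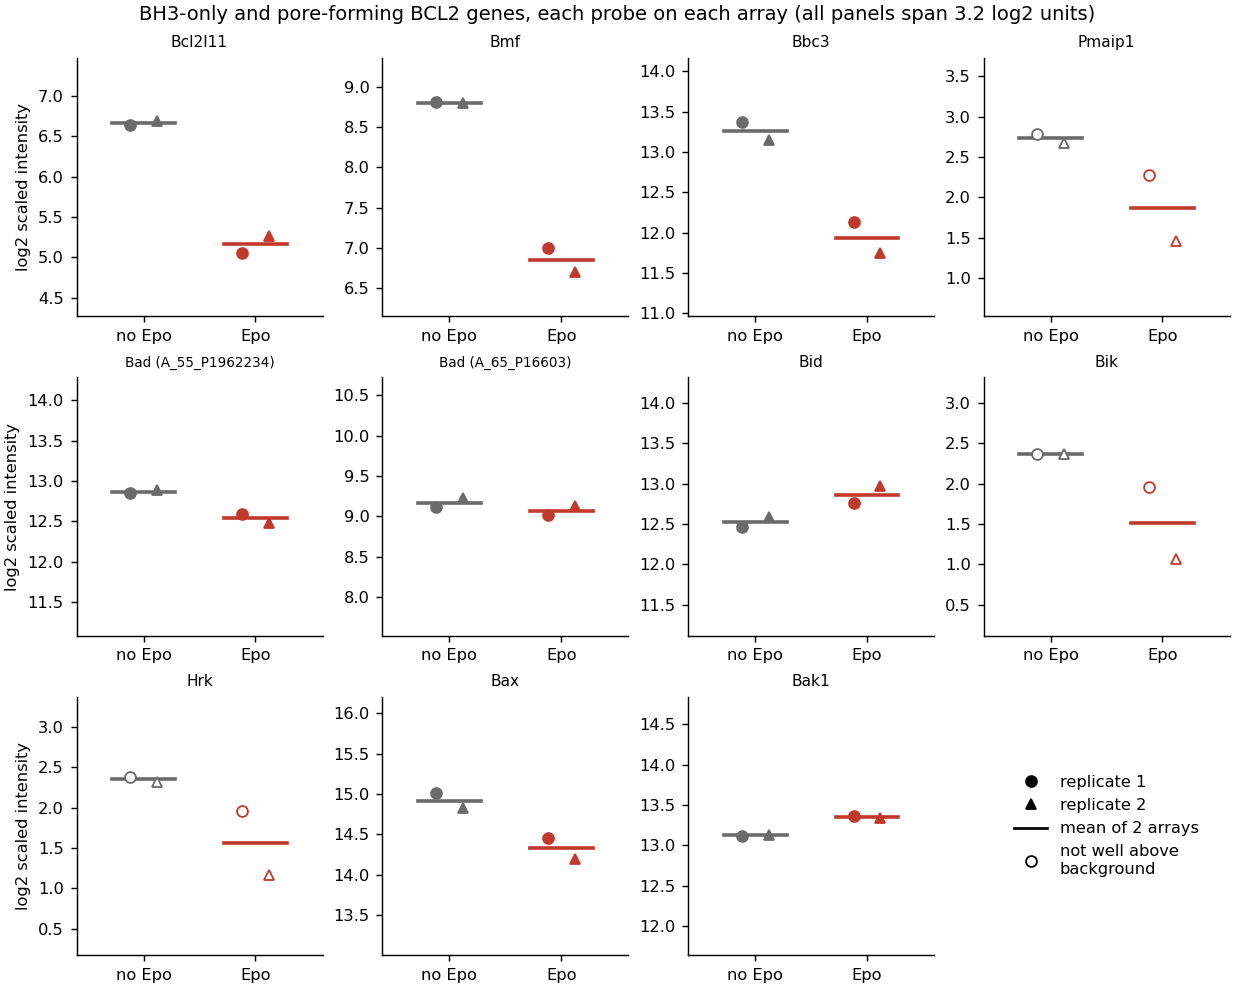
Log2 scaled intensity of all 11 member probes on each of the 4 arrays, by group, with the mean of each group as a line and circles and triangles for replicates 1 and 2. Open symbols are probes not well above background. Bmf, Bcl2l11 and Bbc3 lie lower on both arrays with Epo (changes of -1.95, -1.50 and -1.32), while the other tested probes have changes from -0.59 to 0.34.

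Bad encodes a BH3-only protein that survival kinases phosphorylate and 14-3-3 proteins then hold in the cytosol. Its brighter probe read 12.85 and 12.88 without Epo and 12.60 and 12.48 with Epo, and its dimmer one 9.11 and 9.22 against 9.02 and 9.12. The groups overlapped on the dimmer probe only. The changes were -0.33 ± 0.12 (SE) and -0.098 ± 0.12 (SE), with limma adjusted p of 0.112 and 0.593, so neither was called. Both probes lie on the plus strand of chromosome 19 in mm9, the brighter from 7026323 to 7026382, and the dimmer across a splice junction, from 7016918 to 7017403.

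Bid encodes the BH3-only protein that caspase-8 cleaves, which links death receptors to the mitochondrion. Its log2 level was 12.47 and 12.58 without Epo and 12.76 and 12.97 with Epo. Both arrays with Epo were the higher ones, but the change of 0.34 ± 0.14 (SE) was not called (limma adjusted p 0.143), and its 95% interval ran from -0.030 to 0.70.

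Of the remaining BH3-only genes, Pmaip1 (NOXA, which binds MCL1), Bik and Hrk gave only background. Their processed intensities were 4.08 to 5.49, 3.10 to 4.39 and 3.34 to 4.38 units over the 4 arrays. No fold is given for them. The order of their scaled values in the plot of member probes carries no information for the same reason.

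The pore formers did not pass the threshold. Bax had log2 levels of 15.01 and 14.83 without Epo and 14.45 and 14.20 with Epo, which did not overlap. Its change of -0.59 ± 0.15 (SE) had a limma adjusted p of 0.0523, just short of a call, and the bound of its 95% interval nearest to 0 was -0.19. With the replicate number as a block the limma adjusted p of Bax was 0.0222. When each gene was fitted once by its brightest probe it was 0.0483, so that 4 members were then called lower. Both fits also called more of all features, 40.4% of probes with the block and 27.3% of genes by brightest probe. As reported, 25.9% were called. Before scaling its intensity was 24062 and 23748 units without Epo and 25331 and 27839.6 with Epo. Bak1 had log2 levels of 13.11 and 13.13 against 13.37 and 13.33, and its change of 0.23 ± 0.11 (SE) was not called (limma adjusted p 0.206, 95% interval -0.076 to 0.53).

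All of these changes are relative to the 75th percentile, which was 224 and 250 intensity units without Epo and 347 and 454 with Epo. Without scaling the median change of all genes was 0.68. Bmf and Bcl2l11 were then still called lower, with changes of -1.21 and -0.76, and Bbc3 lay at -0.58 (limma adjusted p 0.124). Bax and both Bad probes lay at 0.15, 0.42 and 0.65, so their sign depends on the scaling, although relative to the median of all genes Bax was at -0.53. Bid and Bak1 kept their sign and were called higher at 1.08 and 0.97. The fit without scaling called 49.7% of all 23735 tested probes, 11329 higher and 477 lower. It gave the probes named here the same SE, 0.33, so its calls do not use each probe's own spread. Counts called without scaling in the lists below carry the same limits.

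**Figure D2:**
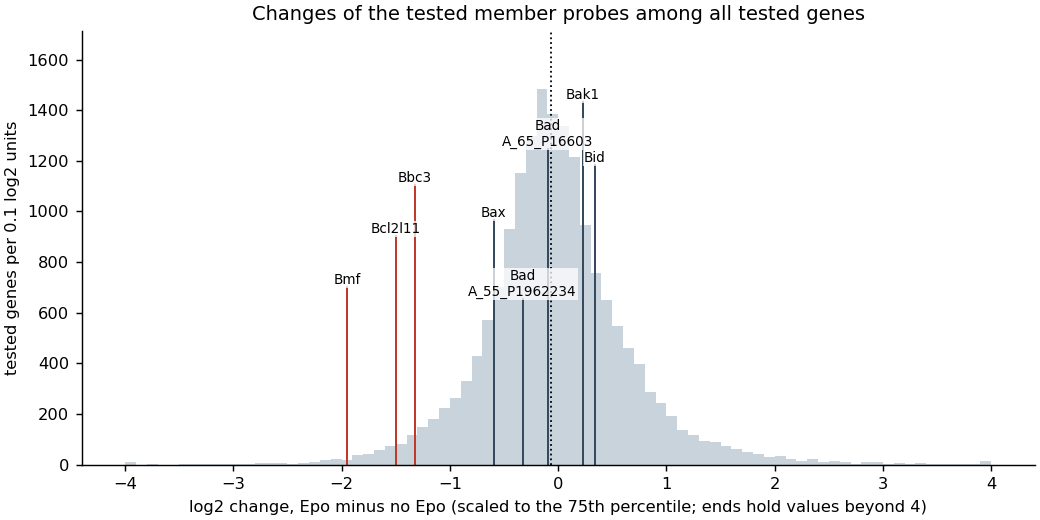
Histogram of the log2 change of all 17569 tested genes, with vertical lines at the 8 tested member probes, red where called. Line heights carry no value, and the dotted line is the median of all genes (-0.062). Bmf, Bcl2l11 and Bbc3 lie to the left of the bulk, and the other 5 probes lie between -0.59 and 0.34.

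Genes with the profile most like that of Bmf were sought among those with a symbol, by the root mean square difference of centred log2 levels over the 4 arrays. The nearest were Hist1h1t (0.054), Exd1 (0.056) and Baiap2 (0.058), with changes of -1.89, -1.95 and -1.93. With 4 arrays in 2 groups this likeness is little more than a fall of the same size.

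The survival members that BH3-only proteins bind are described next. Of 5 tested, 3 were called higher and 0 lower, and the 2 that were not called had changes of 0.17 (Bcl2l2) and 0.60 (Mcl1). Bcl2l1, which encodes BCL-XL, a known STAT5 target in erythroid cells, read 12.62 and 12.63 without Epo and 14.12 and 14.21 with Epo. Its log2 change was 1.54 ± 0.12 (SE), a 2.91-fold rise (limma adjusted p 0.00593). Bcl2a1d, one of several near-identical copies so that the copy is uncertain, rose by 0.91 ± 0.12 (SE), and Bcl2 rose by 0.73 ± 0.14 (SE), with limma adjusted p of 0.0119 and 0.0272. Bcl2, Mcl1 and Bcl2l2 are named here after their values were seen. Mcl1 had a limma adjusted p of 0.0858, and passed in 5 of 14 other settings. Among these were the replicate block and the mean of its probes, where its change was 0.72. Without replicate 2 of the Epo group 1 survival gene was called, without replicate 2 of the control group 2, and without replicate 1 of the Epo group 0. Without scaling all 5 were called higher, as were 11329 of all 23735 tested probes.

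Of 6 tested relatives outside the members (Bcl2l13, Bcl2l14, Bcl2l15, Becn1, Bnip3 and Bnip3l), 1 was called higher and 0 lower. This was Bcl2l14, at 0.68 ± 0.15 (SE) with a limma adjusted p of 0.0349. Leaving out any 1 of the 4 arrays ended that call, and without scaling 4 were called higher.

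**Figure D3:**
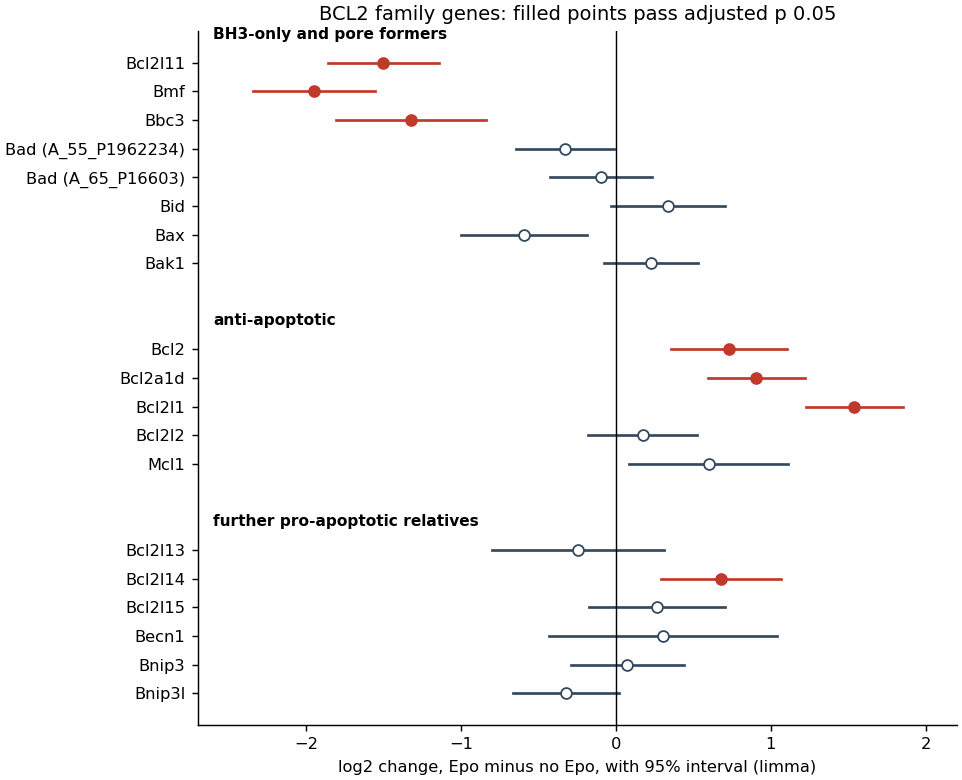
Log2 change with Epo and its 95% interval for the tested BCL2 family genes, in 3 blocks: the members by probe, the survival genes and further relatives, with filled points for an adjusted p under 0.05. The called members lie below 0 (-1.95 to -1.32), and the called survival genes lie above it (0.73 to 1.54).

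Proteins that act on BH3-only proteins were measured next. Of 18 genes for kinases, 14-3-3 proteins, dynein light chains and ligases, 5 were called higher and 1 lower, and the median change was 0.19. The kinase genes Pim1 and Pim3, whose products phosphorylate BAD, rose by 3.70 ± 0.12 (SE) and 2.32 ± 0.14 (SE), with limma adjusted p of 0.00366 and 0.00470. Pim2, the 14-3-3 gene Ywhag and Dynll1, the dynein light chain that holds BIM, are the other 3 rises, at 1.51, 1.71 and 0.78, and were named after their values were seen. The call of Dynll1 ended when any 1 array was left out, and that of Pim2 without either array with Epo. Rps6ka1, a BAD kinase of the ERK pathway, fell by 0.48 ± 0.12 (SE), but lay at 0.27 without scaling. Its call ended when any 1 array was left out, and with the normexp background (limma adjusted p 0.0597). Without replicate 2 of the Epo group 3 of these genes were called higher and 0 lower, without replicate 1 of it 0 were called, and without scaling 12 were called higher and 0 lower.

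Of 13 tested genes known as FOXO targets, 7 were called lower and 0 higher. The median change was -0.72. Ccng2, a cyclin of resting cells, fell by 3.11 ± 0.17 (SE), and Bcl6, a transcriptional repressor, fell by 2.66 ± 0.15 (SE), with limma adjusted p of 0.00455 and 0.00456. Ccng2 was dim with Epo, at log2 levels of 4.82 and 4.44, and its change was -1.92 with the normexp background. The transcripts of Foxo1, Foxo3 and Foxo4 themselves were not well above background on both arrays of either group. Without scaling 3 were called lower and 4 higher. Leaving out 1 array left 4 called lower, or 0 where that array was replicate 1 of the Epo group.

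Of 14 tested genes of the p53 pathway, for which Bbc3, Pmaip1 and Bax are known targets, 1 was called higher and 4 lower, with a median of -0.16. The nuclease gene Aen rose by 1.30 ± 0.13 (SE), whereas Trp53inp1 and Pidd1 had changes of -1.46 ± 0.13 (SE) and -1.28 ± 0.13 (SE), all called. Trp53 itself, named after its value was seen, had a change of 0.063 ± 0.12 (SE), and of -0.062 with the percentile over detected probes. Without scaling 5 were called higher and 0 lower. Leaving out 1 array left 2 called lower, or 0 where that array was replicate 1 of the Epo group.

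Among 9 further regulators of BH3-only genes, 3 were called higher and 5 lower. The transcription factor genes Egr1 and Myc rose by 5.53 ± 0.44 (SE) and 3.37 ± 0.35 (SE), although without Epo only 1 of 2 arrays measured Egr1 above background. The Egr1 change was 6.17 without replicate 1 of the control group, 4.90 without replicate 2 of it and 3.73 with the normexp background, so its size is uncertain. Jun, which is known to act on Bcl2l11 in neurons, fell by 2.36 ± 0.11 (SE), and Tsc22d3, the glucocorticoid-induced leucine zipper, fell by 1.56 ± 0.16 (SE). Without scaling 2 were called lower, and without replicate 1 of the Epo group 0 were called.

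Downstream of the pores, 1 of 14 tested caspase, apoptosome and inhibitor genes was called higher and 2 lower, with a median of -0.27. Diablo, which frees caspases from their inhibitors, rose by 0.61 ± 0.11 (SE). Birc2, one of those inhibitors, fell by 0.83 ± 0.12 (SE), and Casp9, the caspase of the apoptosome, fell by 0.55 ± 0.12 (SE). Casp9 lay at 0.20 without scaling. With the replicate block 7 were called lower, and without replicate 2 of the Epo group or replicate 1 of the control group 0 were called in either direction. Without scaling 3 were called higher and 0 lower. In the death receptor route to Bid, 1 of 9 tested genes was called higher (Tnf, 1.05 ± 0.16 (SE)) and 2 lower, the receptor genes Fas and Tnfrsf1a at -0.86 ± 0.18 (SE) and -0.85 ± 0.11 (SE). Without replicate 2 of either group 0 of these genes were called, and without scaling 5 were called higher and 0 lower.

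**Figure D4:**
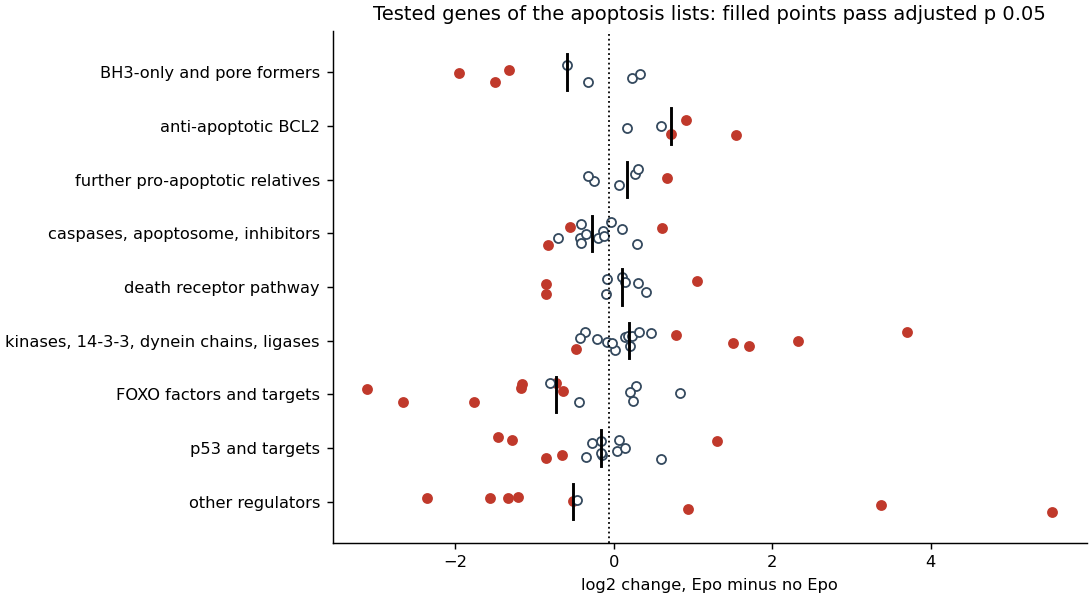
Log2 change with Epo of each tested gene of the members and of 8 apoptosis lists, 1 row per list, with filled points for an adjusted p under 0.05, a bar at each list's median and a dotted line at the median of all genes. The medians run from -0.72 for the row of FOXO factors and targets, where only targets were tested, to 0.73 for survival genes.

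All 8 listed Epo response genes rose, with Socs1 at 6.60 ± 0.29 (SE) and Osm at 4.09 ± 0.15 (SE). That list was chosen with earlier results of these data known, so these rises are no independent check of the labels. Of 11 markers of a myeloid progenitor line 10 were tested, with Kit not well above background, and 1 of them was called lower (Cebpa, named after its value was seen), a call that ended when any 1 array was left out. Of 8 red cell markers 3 were tested and 0 called: Klf1, Hba-a1 and Epb4.2 were well above background on all 4 arrays, with mean log2 levels of 10.20 ± 0.27, 7.81 ± 0.036 and 7.69 ± 0.13 without Epo (SD, n = 2). The red cell markers Alas2, Slc4a1, Rhag and Hbb-b1, the B cell markers Cd79a, Ms4a1 and Pax5 and the collagens Col1a1, Col1a2 and Col3a1 were not well above background on both arrays of either group. Of the macrophage list 6 of 7 were tested, with 1 called higher and 1 lower, and its summed scaled intensity was 11763 and 12401 without Epo and 10437 and 11988 with Epo. The 2 tested lymphoid markers, Cd3e and Cd4, were called lower, as were 2 of 3 tested stromal markers, with 1 called higher. The call of Cd4 ended when any 1 array was left out, and that of Cd3e without either array with Epo. The summed intensity of the lymphoid list was 1440.3 and 1224 without Epo and 691 and 722 with Epo. That of the stromal list was 1218 and 1166 against 1496 and 1594, and that of the red cell list 1492 and 1846 against 1353 and 1639. Their part in the falls of Bmf, Bcl2l11 and Bbc3 was not tested, and in a bulk sample fewer cells of a type and less RNA per cell cannot be told apart.

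**Figure D5:**
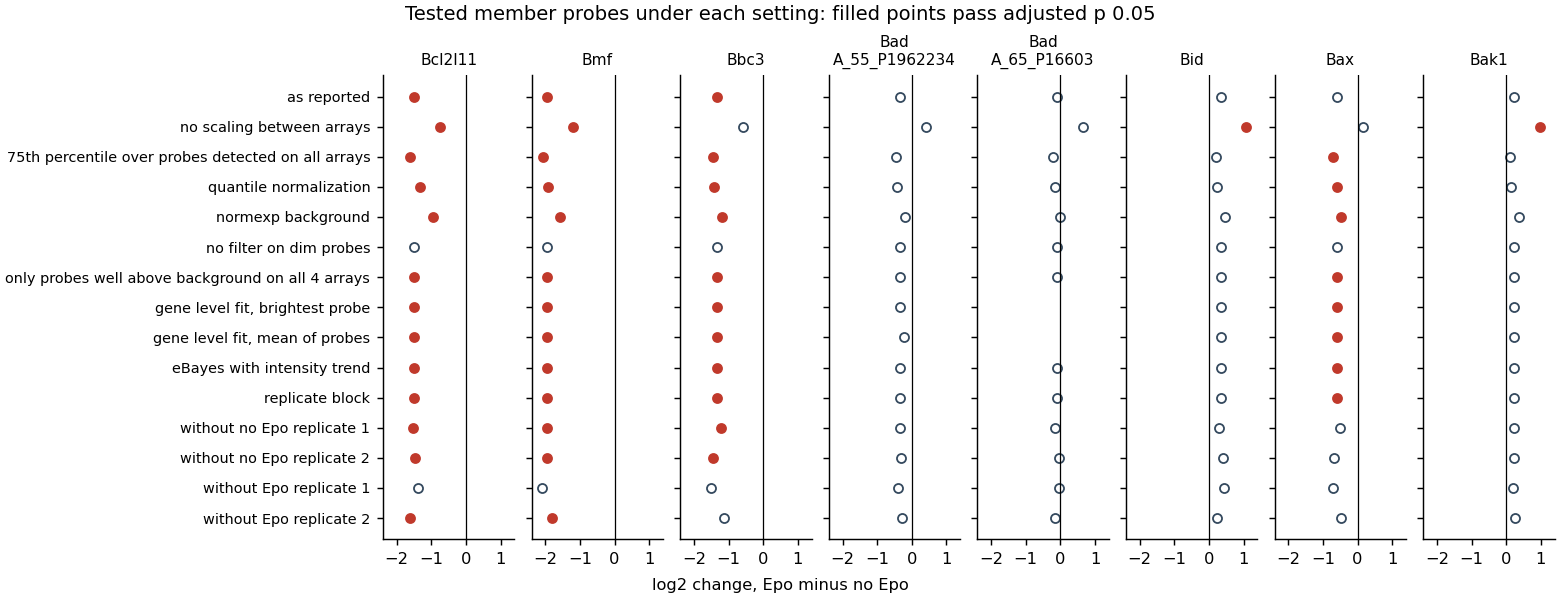
Log2 change with Epo of the 8 tested member probes as reported and under 14 other settings, 1 column per probe, with filled points for an adjusted p under 0.05. Bmf and Bcl2l11 were called in 12 of 14 settings, Bbc3 in 10 and Bax in 8, and leaving the arrays unscaled moved every probe upwards.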

How the data were processed

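Total RNA (200 ng per sample) was labelled with Cy3, per the labels' protocols. Per the file headers, the deposited files come from Agilent Feature Extraction, version 10.1.1.1. The authors' scanner software gave each spot a processed intensity, corrected for background and spatial trend, with surrogate values for the dimmest spots, and a raw mean and local background intensity. These values are not scaled across arrays. Limma is named in the submitters' processing notes.

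Log2 processed intensities were scaled to the 75th percentile of the 59305 non-control spots of each array. Outlier spots were left out (9 of 55681 probes lost), no spot was saturated, and spots of 1 probe were averaged. Probes marked as well above background throughout a group were fitted with limma 3.58.1 in R 4.3.3 (lmFit, eBayes, two-sided, 2 residual and 4.58 total degrees of freedom), adjusted over all 23735 probes. Genes of a list are read by their brightest tested probe. Of 157 listed genes 155 were on the array under a listed name or through a RefSeq accession (GRCm38.p6). The fit was also run on simulated arrays, with independent noise drawn from its own fitted spread. That run does not test whether its assumptions hold for these arrays.

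The members and lists were chosen with earlier results of these data known. Named beyond the members are, per list, up to 2 called rises and 2 called falls of largest size (otherwise the smallest p), and the 3 genes most like the member with the largest fall.

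The replicate numbers were read as the independent experiments that the series' design names. Deviations from the group mean correlated at 0.378 between same-numbered arrays, across probes. An alternative fit took this number as a block.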

Additional observations from a re-analysis of the deposited data

How the results depend on the processing

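Of the 14 alternatives, the direction of Bmf, Bcl2l11, Bbc3, Bid and Bak1 held in all. Without scaling Bbc3 was not called (-0.58), Bid (1.08) and Bak1 (0.97) were, Bax, the brighter and the dimmer Bad probe turned to 0.15, 0.42 and 0.65, 2 members were called higher, and 11329 probes were called higher and 477 lower. With the normexp background the dimmer Bad probe lay at 0.00098 and 4850 probes were lower. Without a filter on dim probes Bmf (-1.95), Bcl2l11 (-1.50) and Bbc3 (-1.32) kept their values but 0 members and 0 of 55672 probes passed (3445 higher and 6049 lower at an unadjusted p under 0.05). Bax was called with the percentile over detected probes (-0.72), quantile normalization (-0.60), normexp (-0.48), and, at -0.59, with probes detected on all arrays, both gene level fits, an intensity trend and the replicate block. With the replicate block 4711 probes were higher and 4876 lower (3084 and 3059 without it), 6021 of them called in both; it changed the call of no member but Bax. With 1 array left out Bmf ran from -2.10 to -1.81, Bcl2l11 from -1.61 to -1.40 and Bbc3 from -1.51 to -1.14. The called members ran from 0 to 3, and all called probes from 0 to 2073 higher and from 0 to 2133 lower. In these fits the lone array is assumed to vary like the other group. Of the list and marker genes named with a value or a call, Casp9 (0.20), Rps6ka1 (0.27), Cebpa (0.0097), Klf1 (0.65), Epb4.2 (0.26) and Hba-a1 (0.55) turned without scaling. Trp53 turned with the percentile over detected probes (-0.062) and quantile normalization (-0.0086), and Klf1 with normexp (0.042) and with 1 array left out (-0.33 to 0.14). Over these genes and alternatives, with the sign kept, a call was gained 10 times and lost 104 times. Casp9, Rps6ka1 and Cebpa also lost their calls where they turned without scaling. The causes were not tested.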
